A study of Rattus norvegicus with 10 samples.

Results

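The genes described here encode the collagens, laminins, proteoglycans and related glycoproteins of the extracellular matrix, together with the integrin subunits through which cells bind that matrix. The rule that chose them used symbols and no expression value, but it was set with earlier results of these data known. The symbols were Col, Lama, Lamb or Lamc followed by a digit, and Itga or Itgb. The named genes *Dcn*, *Lum*, *Bgn*, *Fmod*, *Fn1*, *Sparc*, *Vcan*, *Bcan*, *Ncan* and *Acan* were also taken. The choice gave 87 genes, measured by 129 probe sets, of the 14217 genes that had a probe set with a single symbol. Each gene was represented by its brightest probe set (the one with the highest mean log2 signal). Among the 87, 4 genes matched the symbol pattern without encoding an integrin subunit (*Itgb1bp1*, *Itgb1bp2*, *Itgb3bp* and *Itgbl1*), and they are kept apart below.

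The question of the study was which genes respond when rats receive somewhat less food, here called calorie restriction (CR). Male Wistar rats, an outbred laboratory stock, were 6 weeks old at the start and received 5, 10, 20 or 30% less food, or the control diet, for 1 week. All of them, controls included, were fasted for 16 h before the brain was taken. The study's methods name the hypothalamus area as the sampled region. RNA of 5 rats was pooled for each group and hybridised to 1 Affymetrix rat array, so that 4 CR arrays stood against 1 control array and no group had a second pool. The arrays of the 1 month groups were not used, since their rows did not follow the probe set identifiers.

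In the brain, fibrillar collagens and small leucine rich proteoglycans lie mainly in the meninges and around blood vessels, where fibroblast-like cells secrete them. Collagen IV and laminins form the basement membrane under the endothelium, and astrocyte end feet attach to it through integrins and dystroglycan. The space between neurons holds little collagen and is built instead from hyaluronan and the proteoglycans that bind it, brevican, neurocan, versican and aggrecan, which condense around some neurons as perineuronal nets.

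At 1 week, the array of the control pool differed from all others before any gene was considered. Its log2 signals correlated with those of the CR arrays at 0.852 to 0.874, and pairs of CR arrays reached 0.912 to 0.922. Signals under 10 made up 11.71 to 14.35% of the values on the CR arrays and 24.02% on the control array. The 12 poly-A spike-in probe sets, for bacterial RNA added before labelling, had a lower mean on the CR arrays in 12 of 12 cases, by a median log2 difference of -1.29. The log2 ratio of 3' to 5' *Gapdh* signal, a sign of RNA quality, was 0.40 to 0.79 in CR and 0.19 in control. The same ratio for beta-actin was larger on every array, at 2.19 to 2.8 in CR and 1.9 in control. Every comparison with control below rests on this array, its part in the results was not tested, and no fit could leave it out. With 4 arrays against 1, an exact test of a single gene has 5 arrangements and cannot give a p under 0.2, so the p-values below come from limma fitted across all probe sets and assume that the control array varied as the CR arrays did. The spread behind these p-values is that among the 4 CR arrays, which differ in level, pool and array at once. A pool in which fewer cells of a type were present cannot be told from one with less RNA per cell.

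After 1 week, the small leucine rich proteoglycans decorin and biglycan and the brain proteoglycan brevican were lower in CR rats, while the integrin subunits *Itgb1*, *Itga3* and *Itgae* and the collagens *Col1a1*, *Col6a3* and *Col12a1* were higher. Of the 87 genes, 44 had a mean signal above the median of all probe sets and were tested, and 43 were too dim. The level of that median was a signal of 53.3, and 6 of the 44 exceeded it in mean only through the CR arrays and 2 only through the control array, so those 8 genes had to differ to be tested. Of the 44 tested, 7 were higher in CR (15.9%) and 4 lower (9.09%) at a limma adjusted p under 0.05, and 33 did not pass. Over all 9479 genes tested the shares were 11.6% higher and 11.3% lower, and 22.9% in either direction, so the counts of matrix genes were near the background of this comparison. Without the 4 genes caught by symbol only, 6 were higher and 3 lower of 42 tested. Centring each array on its median in place of the deposited scaling shifted the median log2 difference of all genes by -0.44, and the counts then became 1 higher (*Itgb3bp*) and 10 lower.

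**Figure D1:**
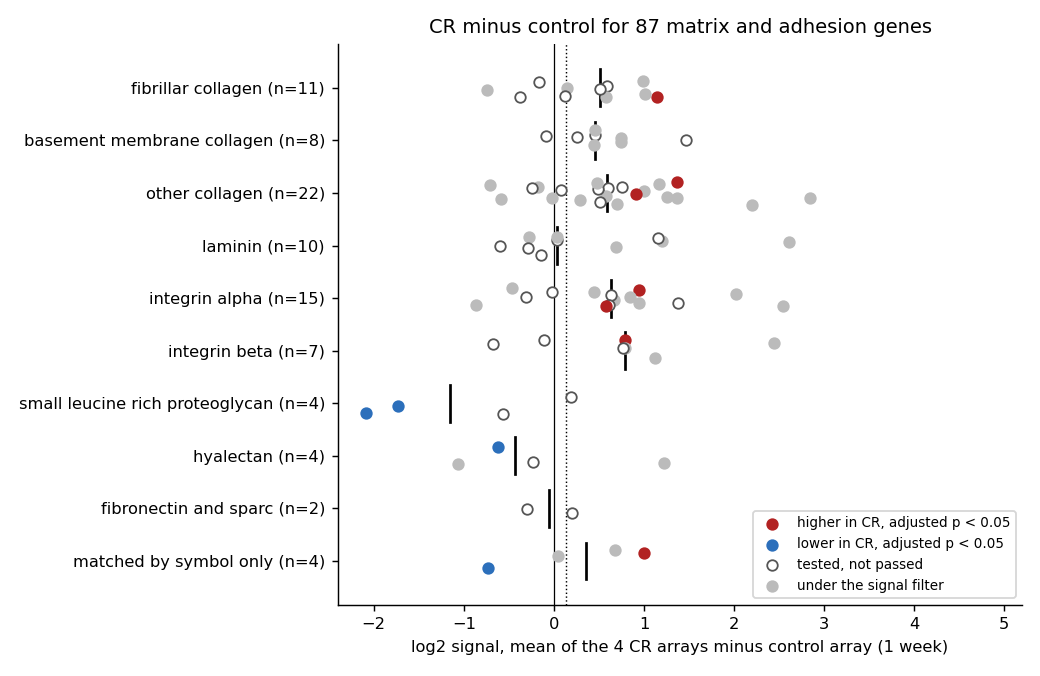
Mean log2 signal in CR (4 arrays) minus that in control (1 array) after 1 week, for 87 genes grouped by protein family. Each point is a gene, black bars are family medians and the dotted line is the median of all 14217 genes (0.13). The small leucine rich proteoglycans have the lowest family median (-1.15) and integrin beta subunits the highest (0.79).

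The small leucine rich proteoglycans gave the largest lower values. Decorin (*Dcn*) binds collagen fibrils, sets their spacing and holds growth factors such as TGF-beta. Its signal was 108.2, 107.6, 104.8 and 166.4 in CR of 5, 10, 20 and 30%, against 509.6 in control. All CR arrays lay far below control, and the 30% array was the highest of them. The mean log2 difference was -2.09 ± 0.32 (± is the SD over the 4 CR arrays here and below), a 4.27-fold lower signal, with a limma adjusted p of 0.0010.

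Biglycan (*Bgn*) is the close relative of decorin and also binds collagen. Its signal was 39.7, 39.9, 47.4 and 83.3 in CR of 5, 10, 20 and 30%, against 165.8 in control. The 30% array again lay above the other CR arrays and below control. Biglycan was 3.32-fold lower in CR (log2 difference -1.73 ± 0.50, limma adjusted p = 0.025). *Bgn* was past the signal filter only through the control array, and it also passed when no filter was set. Both genes have 1 probe set, and both passed under each of the 14 alternative settings in which they could be tested.

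Lumican (*Lum*), which lies next to *Dcn* in the genome and organises collagen fibrils, had signals of 173.5, 152.5, 179.3 and 157.9 in CR of 5, 10, 20 and 30%, against 244.8 in control. The CR arrays were all lower, by 0.57 ± 0.11 on the log2 scale, but the gene missed the threshold (limma adjusted p = 0.071). Fibromodulin (*Fmod*), the remaining member, overlapped with control: 230.7, 180.3, 191.3 and 232.5 in CR of 5, 10, 20 and 30% and 182.0 in control, adjusted p = 0.57. The family thus had 2 lower, 0 higher and 2 that did not pass, with a median log2 difference of -1.15 against 0.13 over all genes.

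Among the hyaluronan-binding proteoglycans, brevican (*Bcan*), a major component of the adult brain matrix made largely by astrocytes, was lower. It was one of the brightest genes here, with 730.7, 657.7, 690.7 and 740.1 in CR of 5, 10, 20 and 30%, against 1085.6 in control. The CR values were close together and did not reach control. The log2 difference was -0.62 ± 0.08 (limma adjusted p = 0.0068). A second, much dimmer *Bcan* probe set had CR arrays on both sides of control (35.6, 37.7, 138.3 and 106.9 in CR of 5, 10, 20 and 30%, against 79.4 in control). With the median over both probe sets *Bcan* did not pass (adjusted p = 0.40).

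The other members of that family were dim. Versican (*Vcan*) had signals of 85.1, 80.8, 46.0 and 71.8 in CR of 5, 10, 20 and 30% and 80.8 in control, which overlapped (log2 difference -0.23, adjusted p = 0.73). Neurocan (*Ncan*) and aggrecan (*Acan*), a main component of perineuronal nets, lay under the signal filter and were not tested. Their signals were 4.8 to 31.0 in CR and 17.7 in control for *Ncan*, and 27.7 to 59.9 in CR and 19.7 in control for *Acan*.

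**Figure D2:**
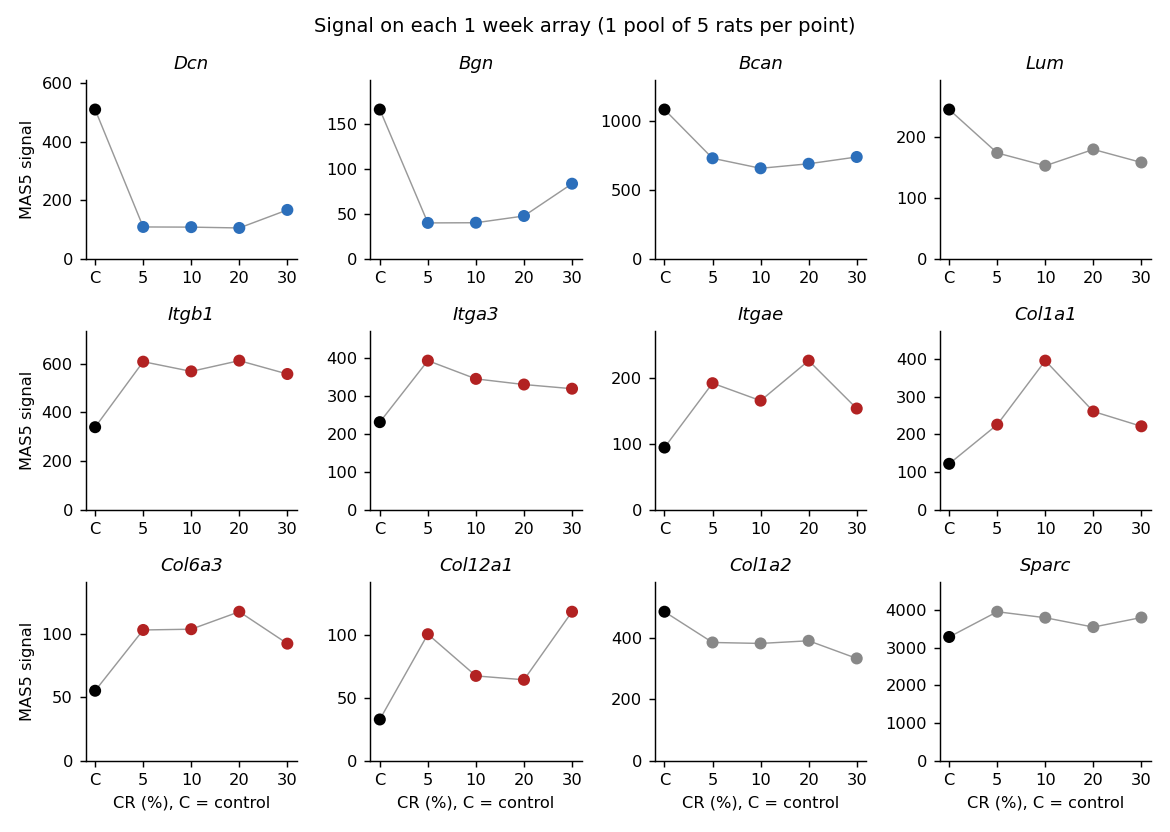
MAS5 signal of 12 genes on each 1 week array, by CR level (C, control; 1 pool of 5 rats per point, no error bar). Blue points mark genes called lower, red points genes called higher, grey points genes that did not pass, and black the control. *Dcn* lies at 104.8 to 166.4 in CR against 509.6 in control, and *Itgb1* at 558.2 to 613.2 against 339.4.

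Fibrillar collagens did not move together. *Col1a1* and *Col1a2* encode the 2 chains of type I collagen, the main fibrillar collagen. *Col1a1* had signals of 226.0, 396.1, 261.0 and 221.6 in CR of 5, 10, 20 and 30%, against 121.9 in control, with the 10% array the highest. It was 2.20-fold higher (log2 difference 1.14 ± 0.39, limma adjusted p = 0.020), although its second probe set did not pass and had the opposite sign (132.9 to 238.0 in CR, 203.4 in control, log2 difference -0.27).

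The partner chain *Col1a2* was brighter and lay on the other side of control. Its signals were 384.4, 381.3, 389.9 and 332.6 in CR of 5, 10, 20 and 30%, against 484.3 in control (log2 difference -0.38 ± 0.11, limma adjusted p = 0.10), and its second probe set gave -0.59. *Col3a1*, the chain of the reticular fibres around vessels, had 313.3 to 407.9 in CR and 415.4 in control (adjusted p = 0.53). Of 11 fibrillar collagen genes, 6 were tested, 1 was higher and 0 were lower.

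Among the collagens outside the fibrils, *Col6a3* and *Col12a1* were higher. *Col6a3* encodes a chain of the beaded-filament collagen VI and had signals of 103.3, 103.9, 117.7 and 92.5 in CR of 5, 10, 20 and 30%, against 55.3 in control. The log2 difference was 0.91 ± 0.14 with a limma adjusted p of 0.047, near the threshold, and the call was lost under 10 of 13 alternative settings, among them without the 5, 10 or 20% array (adjusted p = 0.076, 0.075 and 0.087). The chains that assemble with it did not pass or were too dim: *Col6a1* had 37.6 to 95.4 in CR and 73.8 in control, and *Col6a2* had 8.1 to 58.3 in CR and 48.7 in control.

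*Col12a1*, a fibril-associated collagen, had signals of 100.8, 67.6, 64.5 and 118.7 in CR of 5, 10, 20 and 30%, against 32.9 in control (log2 difference 1.37 ± 0.43, limma adjusted p = 0.041). All CR arrays lay above control, but the gene was tested only through its CR signals, and the call was lost under 8 of 12 alternative settings, among them without the 5% array (adjusted p = 0.078) and without the 30% array (0.072). The brightest of this group was *Col25a1*, a membrane collagen of neurons that binds amyloid-beta, with 345.9, 392.8, 450.6 and 406.8 in CR of 5, 10, 20 and 30% and 283.4 in control (log2 difference 0.49, adjusted p = 0.068). Of 22 such collagens, 8 were tested, 2 were higher and 0 were lower.

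Of 8 basement membrane collagens 4 were tested and 0 passed by limma (1 had an unadjusted p under 0.05). *Col4a1* and *Col4a2* encode the chains of the common collagen IV network and are transcribed away from each other from a shared intergenic stretch. The RefSeq sequence between the annotated starts (GRCr8, chr16:84885521-84885596, plus strand) is shown because the pair shares it, with the GC box (GGGCGG or CCGCCC, the letters bound by SP1) in capitals.
Col4a1 and Col4a2: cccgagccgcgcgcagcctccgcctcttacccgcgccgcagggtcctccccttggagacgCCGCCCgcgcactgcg

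Their signals were 93.5, 150.1, 95.6 and 121.3 in CR of 5, 10, 20 and 30% and 82.3 in control for *Col4a1*, and 126.3 to 154.2 in CR and 115.2 in control for *Col4a2*. Both had all CR arrays above control, by small amounts (log2 differences 0.46 and 0.26, adjusted p = 0.33 and 0.45), though a second *Col4a1* probe set gave -0.05 and *Col4a2* lay below control with median scaling (-0.17). *Col4a5*, from a different collagen IV network, was the brightest of the group at 265.3 to 328.3 in CR and 316.6 in control. *Col15a1*, which links basement membranes to the matrix beneath, had 80.2, 109.2, 46.1 and 53.7 in CR of 5, 10, 20 and 30%, against 24.7 in control (log2 difference 1.47, adjusted p = 0.066).

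Laminins are trimers of an alpha, a beta and a gamma chain. Of 10 laminin genes, 5 were tested and 0 passed by limma in either direction (2 had an unadjusted p under 0.05), with a median log2 difference of 0.04 over all 10. *Lamc1*, the gamma chain of most laminins, had 120.1, 121.9, 153.0 and 150.0 in CR of 5, 10, 20 and 30%, against 205.9 in control (log2 difference -0.60, adjusted p = 0.098). *Lamc3* lay on the other side, with 64.6, 88.4, 87.3 and 111.1 in CR of 5, 10, 20 and 30% and 38.8 in control (1.15, adjusted p = 0.050 after rounding, not past the threshold). *Lamb2*, the beta chain of vascular basement membrane and the brightest of the family, had 112.1 to 183.1 in CR and 152.6 in control, which overlapped.

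The glycoproteins that accompany collagen also did not pass. SPARC, a collagen-binding protein made by astrocytes and vascular cells, was the brightest of the 87 genes. Its signals were 3948.8, 3790.0, 3542.0 and 3794.9 in CR of 5, 10, 20 and 30%, against 3280.0 in control (log2 difference 0.20 ± 0.07, adjusted p = 0.17), and its second probe set overlapped with control. Fibronectin (*Fn1*), the main ligand of several integrins, had 311.6, 332.5, 296.8 and 326.4 in CR of 5, 10, 20 and 30% and 388.7 in control (log2 difference -0.30, adjusted p = 0.20).

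Integrin receptors pair an alpha with a beta subunit, and *Itgb1* encodes the beta subunit shared by most receptors for collagen, laminin and fibronectin. Its signals were 608.9, 569.0, 613.2 and 558.2 in CR of 5, 10, 20 and 30%, against 339.4 in control. The CR values were close together and all above control, and the subunit was 1.73-fold higher (log2 difference 0.79 ± 0.07, limma adjusted p = 0.0032). A dim second probe set, under the signal filter, lay below control on every CR array (19.5 to 74.5 in CR, 90.0 in control), and the median over both was -0.09.

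The 250 bases of RefSeq sequence before the annotated starts of *Itgb1* (GRCr8, chr19:73602027-73602276, plus strand) and *Sparc* (chr10:40038817-40039066, minus strand) are shown as those of the brightest integrin and the brightest matrix gene here, with GC boxes in capitals. *Itgb1* has 4 GC boxes and no CCAAT or TATAAA on either strand, and *Sparc* has none of these motifs.
Itgb1: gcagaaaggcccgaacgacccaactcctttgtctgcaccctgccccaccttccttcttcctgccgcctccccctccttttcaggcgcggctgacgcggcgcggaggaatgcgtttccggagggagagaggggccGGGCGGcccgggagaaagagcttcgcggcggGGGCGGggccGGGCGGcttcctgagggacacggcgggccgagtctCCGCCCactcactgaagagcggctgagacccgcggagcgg
Sparc: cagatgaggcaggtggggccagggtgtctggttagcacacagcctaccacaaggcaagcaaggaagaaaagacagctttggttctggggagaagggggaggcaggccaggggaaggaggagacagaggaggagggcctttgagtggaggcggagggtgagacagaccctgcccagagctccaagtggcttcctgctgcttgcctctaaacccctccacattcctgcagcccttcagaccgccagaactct

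Windows of 250 bases were found in RefSeq for 67 of the 87 genes. A GC box was present in 36 of them (53.7%), against 32.4% of 27457 genes. CCAAT or its reverse ATTGG was present in 18 (26.9%, against 34.3%), and TATAAA or its reverse TTTATA in 7 (10.4%, against 13.1%). These are matches of letters, read from the first listed window of each gene, and not measured binding sites.

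Of 15 integrin alpha genes, 7 were tested, 2 were higher and 0 were lower. *Itga3* pairs with *Itgb1* in a laminin receptor. It had 393.1, 345.0, 330.1 and 319.1 in CR of 5, 10, 20 and 30%, against 230.9 in control (log2 difference 0.58 ± 0.13, limma adjusted p = 0.035). *Itgae*, which in lymphocytes pairs with *Itgb7* and binds E-cadherin, had 191.8, 165.3, 226.0 and 153.4 in CR of 5, 10, 20 and 30%, against 94.2 in control (0.95 ± 0.25, adjusted p = 0.023). Both had all CR arrays above control. With median scaling neither *Itgb1*, *Itga3* nor *Itgae* passed (adjusted p = 0.089, 0.56 and 0.12). *Itga3* also lost its call without the 5% array (adjusted p = 0.071) and without the 10% array (0.059).

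Of the 19 integrin subunits that were not called, 12 had all CR arrays above control and 1 had all below, most of them dim. Among the 8 of these that were tested, 4 had all CR arrays above control (*Itga1*, *Itga5*, *Itgav* and *Itgb4*), 1 had all below (*Itgb5*), and 3 overlapped. *Itga1*, a collagen receptor chain, had 75.3 to 107.4 in CR and 59.4 in control (log2 difference 0.61, adjusted p = 0.20). *Itgb4*, the laminin-binding partner of *Itga6*, had 64.2 to 101.8 in CR and 49.1 in control (0.77, adjusted p = 0.15). *Itga6*, the brightest alpha subunit and a laminin receptor chain, had 434.9 in CR of 5% and 302.9 to 311.6 in the other CR groups, and 338.7 in control (adjusted p = 0.96). Another tested *Itga6* probe set lay above control on every CR array (53.2 to 98.7 in CR, 29.7 in control) and did not pass (1.13, limma adjusted p = 0.10). *Itgav*, which binds fibronectin and vitronectin, had 213.1 to 284.2 in CR and 159.2 in control (log2 difference 0.63, adjusted p = 0.068). *Itga5*, the fibronectin receptor chain, had 93.0, 72.9, 80.9 and 38.4 in CR of 5, 10, 20 and 30% and 26.0 in control (1.38, adjusted p = 0.080). *Itgb2*, the leukocyte and microglial subunit, had 33.6 to 93.9 in CR and 57.3 in control and overlapped widely. *Itgb5*, a partner of *Itgav*, lay below control at 71.7 to 109.2 in CR and 142.6 in control (-0.68, adjusted p = 0.16). Another tested *Itgb5* probe set overlapped with control (56.6 to 72.6 in CR, 59.8 in control).

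The genes that only share the integrin prefix went both ways. *Itgb3bp*, also a centromere protein gene, had 354.6, 456.7, 430.8 and 356.6 in CR of 5, 10, 20 and 30%, against 198.1 in control (log2 difference 1.00 ± 0.19, limma adjusted p = 0.0046), and a second probe set did not pass (0.34). *Itgb1bp1*, whose product binds the cytoplasmic tail of the beta 1 subunit, had 326.1, 296.9, 315.0 and 374.9 in CR of 5, 10, 20 and 30%, against 541.1 in control (-0.73 ± 0.14, adjusted p = 0.013). Its second probe set was dim, under the signal filter, and higher in CR (29.2 to 38.6 in CR, 7.8 in control).

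Probe sets of the same gene often differed. Of the 87 genes, 57 had 1 probe set and 30 had several, and in 15 of the 30 the probe sets had log2 differences of both signs. No gene had a probe set called higher and another called lower. When the median over the probe sets of each gene was used in place of the brightest, 2 genes were higher (*Itga3* and *Itgae*) and 2 lower (*Dcn* and *Bgn*).

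**Figure D3:**
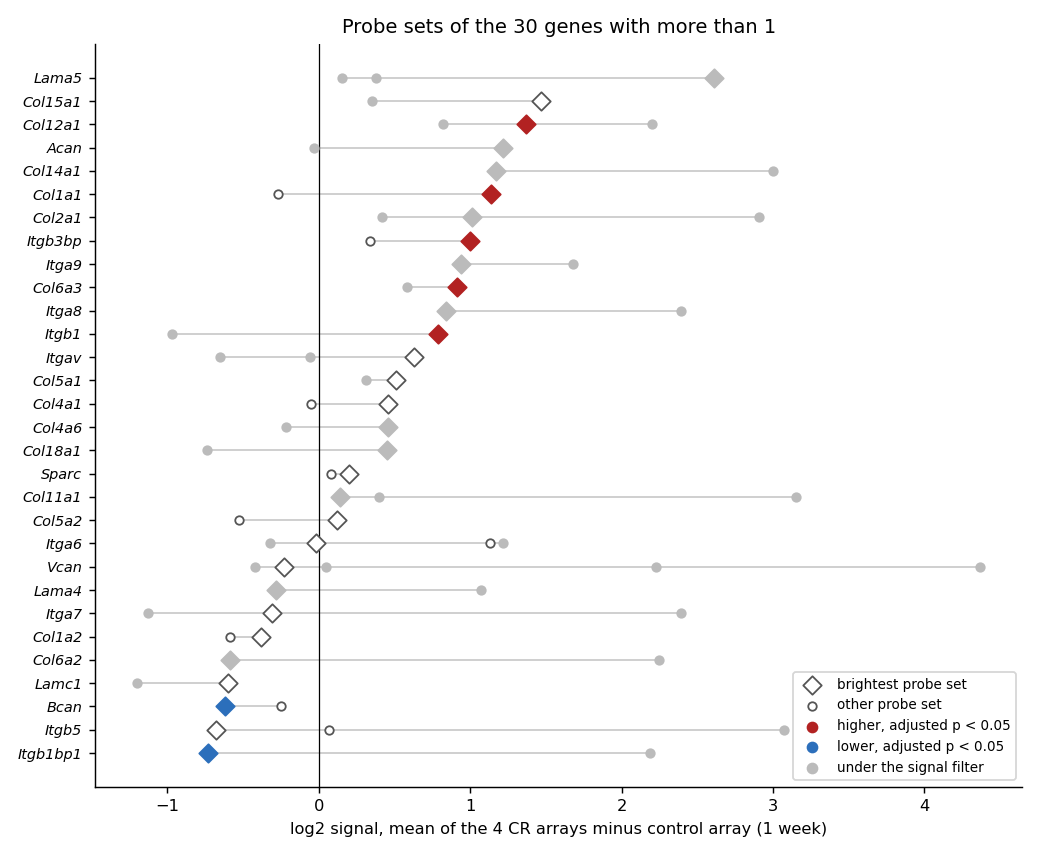
Difference in log2 signal, CR minus control at 1 week, for every probe set of the 30 genes with more than 1. Diamonds are the brightest probe sets and circles the others, and a line joins the probe sets of a gene. For *Itgb1*, *Col1a1* and *Itgb1bp1* the brightest and another probe set lie on opposite sides of 0.

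Differences were higher among dim genes. Of the 87 genes, 43 (49.4%) had all CR arrays above control and 10 (11.5%) had all below, against 40.1% and 26.8% of all genes, and 24 of the 87 had a control signal under 20. The median log2 difference over the 87 genes was 0.51 (0.13 over all genes) with the deposited scaling, 0.07 (-0.31) with median scaling, 0.00 (-0.03) with quantile scaling and 0.01 (-0.06) with cyclic loess. When all genes were divided by mean signal into 4 groups of equal size, the median log2 difference in the dimmest group was 0.72 for its 26 matrix genes and 1.2 for all genes. In the next groups it was 0.51 against 0.22 (35 genes), 0.19 against -0.04 (15 genes) and, in the brightest, -0.02 against -0.08 (11 genes). The largest values above control, 2.84 for *Col17a1*, 2.61 for *Lama5* and 2.54 for *Itgax*, belonged to genes with control signals of 1.0, 7.0 and 1.8, under the filter and not tested.

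**Figure D4:**
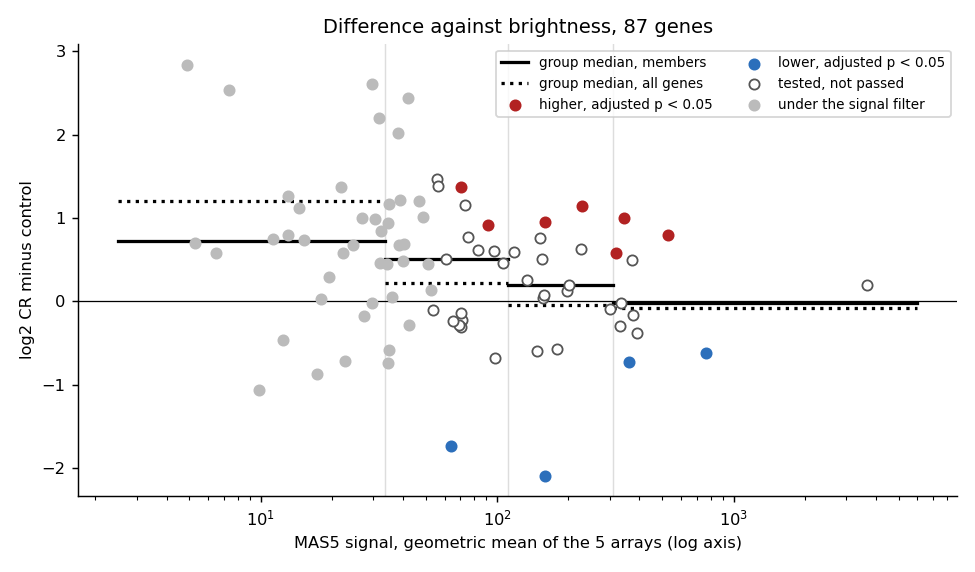
Difference in log2 signal, CR minus control, against the geometric mean MAS5 signal of the 5 arrays (log axis) for 87 genes. Solid bars are medians of the 87 genes in each of 4 brightness groups and dotted bars those of all genes. Both medians are highest in the dimmest group (0.72 and 1.2) and near 0 in the brightest (-0.02 and -0.08).

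At each level taken alone, with 1 array against 1 and no test, the shares of tested genes past 1.5-fold were as follows. At 5% CR 16 of 44 were higher (36.4%, against 16.0% of all genes tested) and 5 lower (11.4%, against 13.8%). At 10% CR 15 were higher (34.1%, against 16.8%) and 11 lower (25.0%, against 15.9%). At 20% CR 15 were higher (34.1%, against 17.4%) and 5 lower (11.4%, against 17.0%), and at 30% CR 11 were higher (25.0%, against 15.3%) and 5 lower (11.4%, against 12.6%). The 4 comparisons share the control array. Past 1.5-fold at every level were 8 genes higher (*Col12a1*, *Col15a1*, *Col1a1*, *Col6a3*, *Itgae*, *Itgb1*, *Itgb3bp* and *Lamc3*) and 2 lower (*Dcn* and *Bgn*). Of these, *Col12a1*, *Col15a1* and *Lamc3* were tested only through their CR signals, and *Bgn* only through the control array. At some levels the shares also include *Itga5*, *Itgb4* and *Col5a1*, likewise tested only through their CR signals. The shares over all genes come from the same filter, and its part in either share was not tested.

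A trend over the level of CR, fitted on the 4 CR arrays without the control, passed for no matrix gene and for 0 of the 15521 probe sets (limma adjusted p under 0.05), while 743 probe sets had an unadjusted p under 0.05. Among the matrix genes 1 did so, against 4.35% of all genes tested. It was *Col16a1*, a fibril-associated collagen, with 190.7, 210.6, 184.4 and 107.3 in CR of 5, 10, 20 and 30% and 99.4 in control, a log2 slope of -0.34 per 10% CR. Among the 44 genes past the signal filter, the largest positive slopes were 0.42 for *Bgn*, 0.39 for *Lamb1* and 0.26 for *Lamc3*. Among the same 44 genes the largest negative slopes were -0.44 for *Itga5*, -0.37 for *Col15a1* and -0.36 for *Itgb2*. None of these 6 reached an unadjusted p under 0.05 in limma's fit.

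Genes that act with these proteins were counted on 6 lists, of which 112 of 127 genes were measured and 83 tested, with 7 higher (8.43%, against 11.6% of all genes tested) and 13 lower (15.7%, against 11.3%). Of the basement membrane linkers 1 was higher and 1 lower of 14 tested. *Nid1* (nidogen, which joins laminin to collagen IV) was higher, with 423.6 to 622.5 in CR and 308.9 in control (log2 difference 0.73), and *Sgce* (a sarcoglycan) lower, with 89.3 to 143.7 in CR and 320.3 in control (-1.40). Of a broad list of perineuronal net, hyaluronan and other brain matrix genes 1 was higher and 3 lower of 10. The hyaluronan synthase *Has2* had 69.7 to 102.8 in CR and 14.6 in control (2.48) and was tested only through its CR signals, and the brain proteoglycan *Cspg5* had 83.6 to 100.3 in CR and 268.6 in control (-1.58). *Spock1* and *Omg* (oligodendrocyte myelin glycoprotein) were also lower (-0.98 and -0.79). *Hapln4*, *Tnr* and *Ptprz1* of the same list were tested and did not pass (log2 differences 0.05, -0.36 and 0.07).

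Of the heparan sulfate proteoglycans and their enzymes, 1 was higher and 3 lower of 12. The sulfotransferase *Ndst1* was higher (1.75), with a control signal of 23.3, and was also tested only through its CR signals. With a filter on the control signal alone, 4 in place of 7 genes of the 6 lists were higher. The cell surface proteoglycans *Sdc3* (-1.31) and *Gpc1* (-0.76) and the sulfatase *Sulf2* (-0.65) were lower. Of the collagen processing genes 1 was higher and 1 lower of 11: the procollagen proteinase *Bmp1* (0.84) and *P4hb*, a subunit of prolyl 4-hydroxylase (-0.80). Of the proteases and inhibitors 1 was higher and 1 lower of 15, the aggrecanase *Adamts4* (0.53), which cuts brevican, and the inhibitor *Serpine2* (-0.89).

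Of the genes of integrin adhesion and signalling, 2 were higher and 4 lower of 21. Vinculin (*Vcl*), which ties integrins to actin, had 2911.8, 3833.2, 4191.4 and 3102.2 in CR of 5, 10, 20 and 30%, against 817.1 in control (log2 difference 2.09, limma adjusted p = 0.00022). The adaptor *Crk* was higher as well (0.58). The tetraspanin *Cd9* (-1.14), the integrin-linked kinase *Ilk* (-1.03) and the small GTPase *Rap1a* (-0.84), which activates integrins, were the lower genes with the largest differences.

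Marker lists of the cells that make this matrix lay on both sides of control. The summed signal of 16 meningeal and fibroblast markers was 6927.3 to 7247.8 in CR and 5970.6 in control, with 3 higher (*Mgp*, *Aebp1* and *Nupr1*) and 0 lower of 13 tested by limma. *Mgp* alone had 1667.8 to 1769.4 in CR and 1024.5 in control. Of the 16, 7 had all CR arrays above control and 4 had all below (*Ogn*, *Islr*, *Slc6a13* and *Slc13a4*). *Slc6a13* had 53.0 to 86.5 in CR and 136.5 in control. The sum of 13 endothelial markers was 2565.0 to 2732.2 in CR and 2738.3 in control. Of 11 tested, 2 were higher (*Slc2a1* and *Tie1*) and 1 lower (*Cldn5*), and *Tie1* was tested only through its CR signals. The sum of 11 pericyte and smooth muscle markers was 1127.0 to 1284.0 in CR and 1329.5 in control. Of 7 tested, 1 was higher (*Notch3*, tested only through its CR signals) and 1 lower (*Tagln*). Markers of tissue next to the hypothalamus had higher sums in CR. Over 9 pituitary markers the sum was 2129.7 to 2894.8 in CR and 1021.0 in control. Most of it was *Cga*, with 1713.9 to 2332.9 in CR and 877.4 in control. All 3 tested were higher, of which *Tshb* and *Lhb* were tested only through their CR signals. The other 6 pituitary markers were under the filter and not tested. Among these, *Gh1* had 8.0 to 50.6 in CR and 10.7 in control, and *Prl* had 5.1 to 29.8 and 0.6. Over 8 choroid plexus markers the sum was 729.4 to 860.7 in CR and 392.0 in control. Its largest part was *Prlr*, with 351.4 to 480.3 in CR and 209.6 in control. Of 3 tested 2 were higher, of which *Ttr* was tested only through its CR signals, and *Folr1* did not pass. Of the choroid plexus markers under the filter, the dim *Kl* and *Aqp1* had negative log2 differences (-1.11 and -0.57). Astrocyte markers, of the cells that make much of the brevican, summed to 28948.0 to 30074.2 in CR and 30907.3 in control, with 1 higher (*Gja1*) and 2 lower (*Aldh1l1* and *Ntsr2*) of 8 tested. The 8 oligodendrocyte markers summed to 20210.2 to 21981.8 in CR and 22109.2 in control. All were tested, and 4 were lower and 0 higher. The brightest of them, *Mbp*, *Mobp* and *Cnp*, did not pass. Hypothalamic neuron markers summed to 31899.7 to 34379.8 in CR and 27627.3 in control, with 4 higher and 1 lower of 11 tested. These counts stand beside 11.6% higher and 11.3% lower over all genes tested, and no marker of these lists was at 0. The part of these differences in the matrix results was not tested.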

How the data were processed

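Processed signals of the 5 arrays at 1 week were used. The authors deposited linear MAS5 signal intensity, estimated from perfect-match and mismatch probes, and the authors scaled each array to an equal trimmed mean (158.8). Low signals are therefore noisy on a log scale, and the number of arrays limits the precision. Detection calls were not used here.

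Signals were taken as log2 after 4 values of 0 were set to 0.1. A probe set was kept if its mean log2 signal exceeded the 50th percentile, which left 15521 after 57 control probe sets were left out. Symbols came from the platform annotation, which gave 1 symbol to 20832 of 31099 probe sets, several to 436 and none to 9831. All 87 symbols were found in RefSeq (GRCr8), the source of the sequences.

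CR and control were compared with limma 3.58.1 (R 4.3.3, lmFit and eBayes with an intensity trend, 3 residual degrees of freedom), with Benjamini-Hochberg adjustment over all probe sets kept and a threshold of 0.05. The trend used the 4 CR arrays (2 residual degrees of freedom). The fit was tested on simulated data in which the control array was given the spread of the CR arrays. That simulation therefore could not check whether the real control array varied as the CR arrays did. Python 3.11.15 (pandas 2.3.3, matplotlib 3.10.9) was used for the rest.

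The genes named are those that passed with every CR array above, or every one below, control, the brightest of each family, every proteoglycan, *Fn1*, *Sparc*, the 3 largest slopes in each direction and up to 3 genes per direction of each list. Others, such as *Lamc3*, *Itgav* and *Col6a1*, were added after their values were seen. The members and lists were chosen with earlier results of these data known. Alternatives were median, quantile and cyclic loess scaling, a pseudocount of 13.7 (the 20th percentile), other filters, eBayes without a trend or robust, each CR array left out, the median over probe sets, and 2-fold in place of 1.5-fold.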

Additional observations from a re-analysis of the deposited data

Results flagged for a closer look

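For each of 28 named genes the 4 CR arrays were examined for a single array far from the rest, by the gap to its nearest neighbour divided by the range. The gap exceeded Dixon's critical value for 4 values in 4 genes, where chance gives about 1 in 20. For *Dcn* the ratio was 0.931, with 166.4 in CR of 30% and 104.8 to 108.2 in the other CR groups. For *Itga6* it was 0.922, with 434.9 in CR of 5% and 302.9 to 311.6 in the others. For *Col1a2* it was 0.86, with 332.6 in CR of 30% and 381.3 to 389.9 in the others. For *Ncan* it was 0.854, with 31.0 in CR of 5% and 4.8 to 6.3 in the others, all dim signals under the filter.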

How the results depend on the processing

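*Dcn* and *Bgn* passed under every alternative in which they were tested, with adjusted p of 0.00016 to 0.012 and 0.0048 to 0.045. *Bcan*, *Itgb1bp1* and *Itgb3bp* each lost the call under 1 of 15 alternatives, the median over probe sets. The main counts were 7 higher and 4 lower. Leaving out each CR array gave 5 to 8 higher and 4 lower. Median scaling gave 1 higher and 10 lower, the filter at the 75th percentile, which tests fewer genes, 4 and 2, and the median over probe sets 2 and 2. For the other matrix and adhesion genes (7 higher and 13 lower), median scaling gave 3 and 36, and 4 were higher with the filter at the 75th percentile, with eBayes without a trend and with a filter on the control signal alone.

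At 2-fold, of 44 tested, 5 genes were higher and 2 lower at 5% CR, 8 and 2 at 10%, 6 and 2 at 20% and 3 and 1 at 30%. With no filter, of all 87 genes, 38 were higher and 10 lower at 5%, 38 higher at 10%, 39 and 12 at 20% and 38 and 10 at 30%. The lower count at 10% is left out here, since it lay within 1.5 times the main count of 11. It was the largest lower count of any level without a filter. With the filter at the 75th percentile, of 17 tested, the counts were 4 and 1 at 5%, 4 and 3 at 10%, 5 and 2 at 20% and 3 and 1 at 30%. Shares over all genes were not counted for these settings. Dim genes, which the setting without a filter includes, were mostly higher in general: in the dimmest group 77.9% of all genes had a positive difference. With quantile scaling 7 were higher at 30%.

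Log2 differences changed sign with median scaling for 6 tested genes, *Fmod* (-0.25), *Lamb2* (-0.40), *Sparc* (-0.24), *Col4a2* (-0.17), *Col5a2* (-0.32) and *Col9a3* (-0.36), and with the median over probe sets for *Itgb1* (-0.09) and *Itgb1bp1* (0.73). *Itga6* was 0.06 with quantile scaling, 0.05 with cyclic loess and ranged from -0.15 to 0.03 over the fits that left out a CR array. In those fits *Itgb2* ranged from -0.38 to 0.11 and *Lamb2* from -0.03 to 0.20. The cause was not tested. No paired analysis was possible because each group had 1 array. A dim signal does not show that a transcript was present.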
